A study of Mus musculus with 2 samples.

Results

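Immediate early genes are transcribed within minutes of a stimulus, before new protein is made, through kinases that act on factors already bound at their promoters. Their products are mostly transcription factors and regulators of the response itself: Fos and Jun family proteins pair as the AP-1 factor, Egr1 and Nr4a1 bind DNA as a zinc finger factor and an orphan nuclear receptor, and Atf3 is a stress-induced member of the ATF/CREB family. Neurons, glia and vessel cells of the brain all use these genes, and enzymatic dissociation of tissue is known to raise them in isolated cells. The 10 genes described are Fos, Fosb, Jun, Junb, Jund, Egr1, Ier2, Btg2, Atf3 and Nr4a1, taken by symbol from the 25906 genes of the count tables. All 10 were listed, and each had at least 1 unique molecular identifier (UMI, a counted RNA molecule) in both libraries.

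The data were 2 single-cell RNA libraries made with 10x Genomics 3′ chemistry from cells of whole adult mouse brain, labelled as endothelial cells and astrocytes obtained by sorting. The first library was labelled IL34LacZ/LacZ (library name mutant, called knockout by the submitters), with both Il34 alleles carrying LacZ. The other was labelled IL34LacZ/+ (library name control, called wild type by them) and carries LacZ on 1 allele too. They are called mutant and control below. Il34 encodes a cytokine ligand of the receptor Csf1r. With 1 library per genotype there was no replicate check and no p-value is given. How many animals stood behind each library is not given in the sources used here. Every interval stands at 95% and covers counting error only.

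Cells were placed in classes by lists of up to 8 marker genes, none of which is an immediate early gene, and each class name stands for cells resembling that type by these markers. The mutant library gave 304 endothelial cells and 115 astrocytes, and the control library 523 and 250. Classes outside the labelled cell types made up most of the rest. They were 236 oligodendrocytes, 261 choroid plexus epithelial cells, 83 fibroblasts and 47 pericytes in the mutant library. In the control library they were 252 oligodendrocytes, 351 choroid plexus epithelial cells, 87 fibroblasts and 34 pericytes. Of 1167 mutant and 1659 control cells kept, 52 mutant and 74 control cells matched no class. Median depth was 10366 UMIs per cell in the mutant library and 8053 in the control library. The libraries shared 8 barcodes, of which 2 passed the filters. Il34 itself was counted at 18.8 CPM (UMIs scaled to a common total; 16.6 to 21.3) over all mutant cells and 10.3 CPM (8.79 to 11.98) over all control cells. Where the LacZ insertion lies relative to the 3′ tags counted is not given in the sources used here, so this level does not check the genotype labels, on which every comparison below rests.

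Of the genes, 4 (Jun, Junb, Jund and Ier2) are single-exon genes in the GENCODE annotation of mouse build GRCm38, and 3 of them, Junb, Jund and Ier2, lie on chromosome 8, with the starts of Junb and Ier2 315.866 kb apart. Junb (chr8:84974484-84978718, minus strand) overlaps Prdx2 (chr8:84969587-84974834, plus strand) at its 3′ end, so reads of the pair can be told apart only by strand. Upstream windows of 250 bases from RefSeq (GRCm38.p6) were matched for 8 of the 10 genes. Cyclic AMP response elements, bound by CREB, are a known route of induction of Fos, and their 5-letter core TGACG was found on either strand in 6 of the 8 windows, against 17.8% of all 32851 windows of this length. The full palindrome TGACGTCA was found only in the window of Btg2 (1.55% of all windows), and TATAAA on the gene's strand only in that of Fos (7.59%). The windows held 47.6% to 74.4% G and C, against a median of 52.4% over all windows, and such matches describe letters, not bound sites. The windows of Fos (chr12:85473640-85473889, plus strand), Btg2 (chr1:134079156-134079405, minus strand), Nr4a1 (chr15:101266596-101266845, plus strand) and Junb (chr8:84978749-84978998, minus strand) are printed on the gene's strand to show how these elements are spaced, with TGACG or its complement CGTCA, and TATAAA, in capitals. That of Nr4a1 lies upstream of an internal start, 12577 bases from the 5′ end of the GENCODE gene. Among the windows counted but not printed, that of Atf3 also lies at an internal start and overlaps an Atf3 exon. The Fosb window overlaps a Fosb exon. The Jund window, without TGACG and with the lowest G and C, ends at chr8:70697738, before the GENCODE start at 70698949. The 8 windows are thus not all at the GENCODE start.
Fos: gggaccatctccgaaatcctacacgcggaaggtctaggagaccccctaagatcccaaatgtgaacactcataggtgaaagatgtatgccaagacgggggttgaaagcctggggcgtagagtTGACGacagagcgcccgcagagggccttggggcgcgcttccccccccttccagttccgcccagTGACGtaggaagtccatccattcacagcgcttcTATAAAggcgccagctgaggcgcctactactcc
Btg2: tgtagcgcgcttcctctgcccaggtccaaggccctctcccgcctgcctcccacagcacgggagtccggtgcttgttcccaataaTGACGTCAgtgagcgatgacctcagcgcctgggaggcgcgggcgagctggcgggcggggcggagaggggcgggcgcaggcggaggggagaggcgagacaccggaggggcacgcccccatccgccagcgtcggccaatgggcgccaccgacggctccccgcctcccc
Nr4a1: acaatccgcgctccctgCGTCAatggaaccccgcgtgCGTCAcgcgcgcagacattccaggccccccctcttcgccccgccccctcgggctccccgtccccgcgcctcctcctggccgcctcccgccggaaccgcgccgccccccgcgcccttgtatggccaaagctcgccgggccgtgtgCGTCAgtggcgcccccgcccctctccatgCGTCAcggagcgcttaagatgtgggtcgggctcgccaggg
Junb: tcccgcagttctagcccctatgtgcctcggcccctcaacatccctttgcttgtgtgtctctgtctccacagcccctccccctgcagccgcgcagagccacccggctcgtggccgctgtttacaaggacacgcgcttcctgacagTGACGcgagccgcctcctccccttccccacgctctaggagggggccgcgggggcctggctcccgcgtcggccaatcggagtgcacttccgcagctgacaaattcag

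Oligodendrocytes and fibroblasts, both outside the labelled cell types, carried most of the immediate early RNA. Summed over the 10 genes, oligodendrocytes held 2849.7 CPM (2799 to 2901) in the mutant library and 2090.0 CPM (2042 to 2139) in the control library. Mutant fibroblasts held 2070.0 CPM (1991 to 2151) and control fibroblasts 2945 CPM (2852 to 3040). These were the highest of the 6 classes in both libraries, with oligodendrocytes above fibroblasts in the mutant library and below them in the control library. Choroid plexus epithelium followed in the mutant library at 335 CPM (317 to 354), where its interval overlapped those of pericytes at 319 CPM (253 to 396), and held 208 CPM (196 to 222) in the control library. Endothelial cells held 289 CPM (264 to 316) in the mutant and 567 CPM (539 to 596) in the control library, and pericytes of the control library 380.5 CPM (294 to 485). Astrocytes were lowest in both libraries, at 95.7 CPM (78.5 to 115) in mutant and 92.6 CPM (80.4 to 106) in control.

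**Figure D1:**
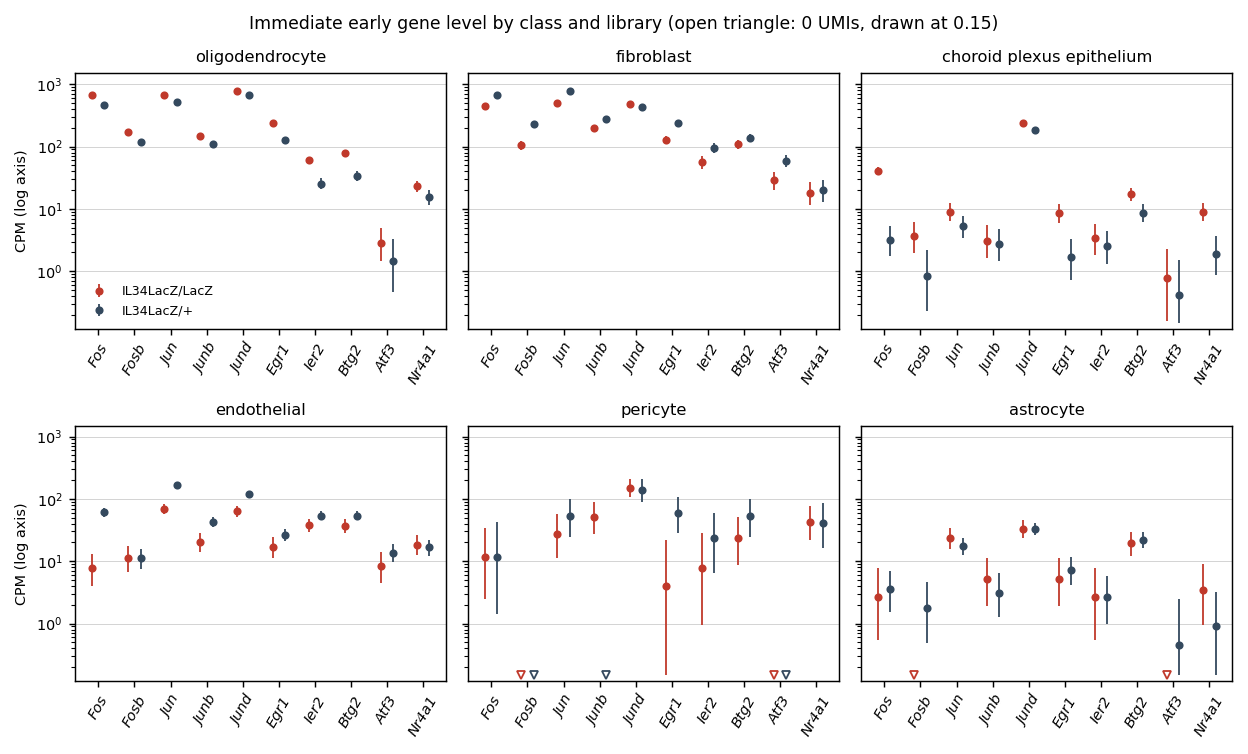
Level of each of the 10 genes (CPM, log axis) in 6 marker-gated classes, with the mutant library (IL34LacZ/LacZ) in red on the left and the control library (IL34LacZ/+) in dark blue on the right of each pair. Bars are exact Poisson 95% intervals, lower ends stop at 0.15, and open triangles mark genes with 0 UMIs; Fos reached 671 CPM in mutant and 466 CPM in control oligodendrocytes and 2.63 CPM in mutant and 3.60 CPM in control astrocytes.

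Among the AP-1 genes, Fos, the partner that requires Jun proteins to bind DNA, was highest in oligodendrocytes and fibroblasts. It reached 671 CPM (647 to 696) in mutant and 466 CPM (444 to 489) in control oligodendrocytes, and 452 CPM (416 to 491) in mutant and 672 CPM (628 to 718) in control fibroblasts. In choroid plexus epithelium it was at 40.9 CPM (34.8 to 47.8) in mutant and 3.18 CPM (1.78 to 5.24) in control cells. Endothelial cells held 7.65 CPM (4.08 to 13.1) in mutant and 60.5 CPM (51.7 to 70.4) in control. Pericytes held 11.8 CPM from 3 UMIs in mutant and 11.7 CPM from 2 UMIs in control, and astrocytes 2.63 CPM from 3 UMIs in mutant and 3.60 CPM from 8 UMIs in control. Fos was thus high in the same 2 classes in both libraries, while its order among the other classes differed between the libraries. Fosb, a Fos paralogue, was at 174 CPM in mutant and 116 CPM in control oligodendrocytes and 105 CPM in mutant and 229.7 CPM in control fibroblasts. It was at 11.2 CPM in endothelial cells of both libraries and had 0 UMIs in pericytes.

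The Jun genes were less restricted. Jund, a Jun protein expressed constitutively in many cells, was detected in 95.3% of mutant and 87.7% of control oligodendrocytes and in 90.4% of mutant and 79.5% of control choroid plexus cells. Its levels were 777 CPM in mutant and 670.0 CPM in control oligodendrocytes and 474 CPM in mutant and 436 CPM in control fibroblasts. Choroid plexus epithelium held 239.6 CPM in mutant and 181 CPM in control, and pericytes 149.6 CPM in mutant and 140.5 CPM in control. The lowest levels were 63.0 CPM in mutant and 119.5 CPM in control endothelial cells, and 33.4 CPM in mutant and 33.3 CPM in control astrocytes. Jun, the AP-1 subunit that gave the family its name, was at 681 CPM in mutant and 523 CPM in control oligodendrocytes, 500.4 CPM in mutant and 780.4 CPM in control fibroblasts and 69.5 CPM in mutant and 168 CPM in control endothelial cells. It was at 9.07 CPM in mutant and 5.30 CPM in control choroid plexus epithelium, so the sum there was carried by Jund, with 925 of 1294 UMIs in mutant and 854 of 983 in control. Junb, often a weaker activator than Jun, was at 148 CPM in mutant and 109.7 CPM in control oligodendrocytes and 197 CPM in mutant and 278 CPM in control fibroblasts, and at or below 51.2 CPM in the other 4 of the 6 classes. In pericytes it had 13 UMIs in 47 mutant cells and 0 UMIs in 34 control cells. Of the 13 UMIs, 38.5% were in 1 cell. Against a floor of 3 counts over the control pericytes the level was 2.92-fold higher, with the 13 UMIs taken as exact. The counting interval of the log2 ratio of mutant over control had its lower limit at 1.04. With each cell reduced to an equal number of UMIs, a Junb UMI was found in 1 mutant and 0 control pericytes.

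Among the remaining transcription factors, Egr1 was at 235 CPM in mutant and 129 CPM in control oligodendrocytes and 129 CPM in mutant and 237 CPM in control fibroblasts. Nr4a1 was at 23.3 CPM in mutant and 15.5 CPM in control oligodendrocytes and at 18.3 CPM in mutant and 20.1 CPM in control fibroblasts. Pericytes held 43.3 CPM (21.6 to 77.5) of Nr4a1 in mutant and 41.0 CPM (16.5 to 84.4) in control. These intervals overlapped those of oligodendrocytes and fibroblasts. Nr4a1 was not alone in departing from the order of the sums. Control endothelial cells held 53.6 CPM of Ier2 and 54.0 CPM of Btg2, above the 25.6 CPM and 33.3 CPM of control oligodendrocytes. In mutant, endothelial cells held 37.7 CPM of Ier2 and 36.5 CPM of Btg2, below the 60.3 CPM and 78.0 CPM of oligodendrocytes. Among the 6 classes Atf3 was highest in fibroblasts and next in endothelial cells, at 28.6 CPM in mutant and 59.5 CPM in control fibroblasts and 8.24 CPM in mutant and 13.8 CPM in control endothelial cells, where 2.3% of mutant and 4.97% of control cells had a UMI of it. It was at 2.79 CPM in mutant and 1.44 CPM in control oligodendrocytes and had 0 UMIs in pericytes. In astrocytes Btg2, an antiproliferative regulator, was at 19.3 CPM (12.1 to 29.2) in mutant and 22.0 CPM (16.3 to 29.1) in control, and Ier2, a nuclear early response protein, at 2.63 CPM from 3 UMIs in mutant and 2.70 CPM from 6 UMIs in control. Per gene, the correlation of log2(CPM + 1) with the mean of the standardised set over the 12 sums of class and library was between 0.63 for Nr4a1 and 0.96 for Jun, as a description over sums that share 2 libraries. Each gene is itself part of that mean, which raises its correlation by construction.

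Small classes gave sums set by single cells. The 10 mutant microglia held 2780.1 CPM from 47 UMIs, of which 1 cell held 87.2%, and the 44 control microglia 1194 CPM from 104 UMIs, of which 1 cell held 62.5%. The 18 mutant neurons held 27 UMIs of the 10 genes, 81.5% of them in 1 cell, and the 17 control neurons 10 UMIs, 40% of them in 1 cell.

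Single cells differed in how the RNA was spread. At least 5 of the 10 genes were detected in 40.7% of mutant and 27.0% of control oligodendrocytes, and in 33.7% of mutant and 35.6% of control fibroblasts. The same was true of 1.97% of mutant and 2.68% of control endothelial cells and of 0 mutant astrocytes and 1 control astrocyte. After each cell was thinned to 1000 UMIs, at least 3 of the genes were seen in 23.3% of mutant and 14.3% of control oligodendrocytes, in 19.3% of mutant and 20.7% of control fibroblasts and in 1.32% of mutant and 1.34% of control endothelial cells. The median correlation between pairs of the genes over cells was 0.56 in mutant and 0.44 in control oligodendrocytes and 0.55 in mutant and 0.68 in control fibroblasts. It was 0.18 in endothelial cells of both libraries, over 6 pairs of Jun, Jund, Ier2 and Btg2, the genes detected in at least 10% of cells there, against 36 pairs in oligodendrocytes and 45 in fibroblasts, so the medians are not over the same pairs. In oligodendrocytes the median cell held 1231 CPM in mutant and 839 CPM in control, the 90th percentile was 6235 CPM in mutant and 5931 CPM in control, and the 96th 13455 CPM in mutant and 8371 CPM in control, so the mutant library was higher in the middle of the distribution and in its uppermost cells.

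**Figure D2:**
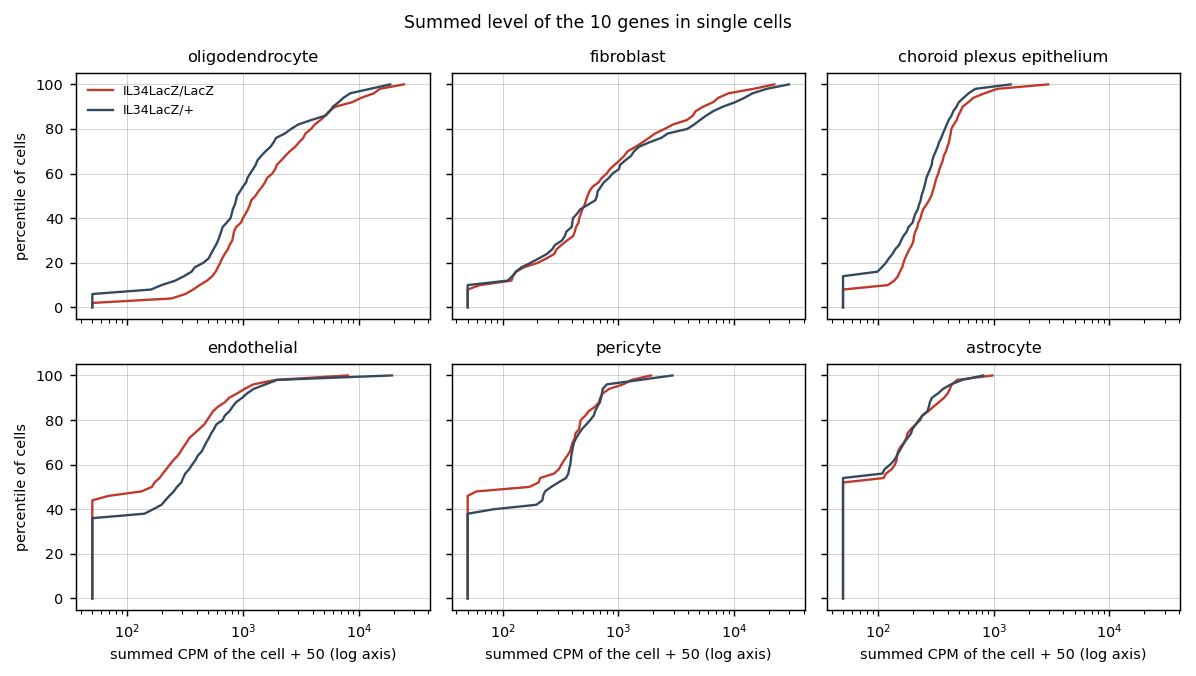
Cumulative distribution over cells (percentile, vertical axis) of the summed CPM of the 10 genes in the cell plus 50 (log horizontal axis) in 6 classes, mutant (IL34LacZ/LacZ) in red and control (IL34LacZ/+) in dark blue. The mutant oligodendrocyte curve lies to the right over most of its range, while the mutant endothelial curve lies to the left from the cells with none (46.1% in mutant and 36.9% in control) through the middle and nears the control curve at percentile 98 (1872 CPM in mutant and 1923 CPM in control), and the astrocyte curves lie close together.

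In oligodendrocytes, all 10 genes were higher in the mutant library, and the summed level was 1.36-fold that of the control library (log2 ratio 0.45, 0.41 to 0.49). Of the genes, 9 were measured, that is, had at least 100 UMIs over both libraries and 20 CPM in either, and 4 of these 9 were past 1.5-fold higher and 0 past 1.5-fold lower. Over all 6627 measured genes in oligodendrocytes, 1.3% were past 1.5-fold higher and 1.22% lower, and the median log2 ratio was −0.05 over all of them and 0.58 over the 9. Of the 4, Ier2 was at 60.3 CPM in mutant and 25.6 CPM in control cells (log2 1.24, 0.89 to 1.60) and Btg2 at 78.0 CPM in mutant and 33.3 CPM in control cells (1.23, 0.92 to 1.54). The others were Egr1, at 235 CPM in mutant and 129 CPM in control cells (0.87, 0.70 to 1.03), and Nr4a1, at 23.3 CPM from 100 UMIs in mutant and 15.5 CPM from 54 UMIs in control cells, whose ratio lay just past the threshold (0.59, 0.09 to 1.09) and ran from 0.22 to 1.26 over the other ways of processing. Fosb, at 174 CPM in mutant and 116 CPM in control cells (0.58, 0.41 to 0.76), lay just inside it. Fos (0.53), Junb (0.43), Jun (0.38) and Jund (0.21) were higher by less than 1.5-fold with intervals above 0. No cell held more than 16.2% of any measured gene's UMIs in mutant and 20.2% in control, and all 13 other ways of processing kept each of these genes higher. Still, 6 mutant and 3 control cells held 50% of the Ier2 UMIs, and 11 mutant and 6 control cells 50% of the Btg2 UMIs. A Fos UMI was found in 50% of mutant and 36.9% of control oligodendrocytes, and a Jun UMI in 88.1% of mutant and 71.0% of control. Of the 4 genes past 1.5-fold, Ier2 was found in 16.5% of mutant and 10.3% of control cells (difference 6.2 points, −0.1 to 12.6). The intervals for Btg2, Egr1 and Nr4a1 lay above 0. Mutant oligodendrocytes were deeper, with a median of 16445 UMIs against 13718.5 in control, and after thinning the share with any of the 10 genes was 67.8% in mutant and 60.3% in control, a difference of 7.5 points whose interval included 0 (−1.3 to 16.1). The thinned intervals of Ier2, Btg2, Egr1 and Nr4a1 also included 0, and Egr1 was then found in 10.6% of mutant and 11.1% of control cells. The mitochondrial share moved with the result. In the oligodendrocytes of low mitochondrial share, under 5.07% of UMIs, the sums were 4214 CPM in mutant and 2657 CPM in control, and in those above 6.92% they were 1527 CPM in mutant and 1660.3 CPM in control. The part of this share in the difference was not tested.

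In fibroblasts, 9 of the 10 genes were measured, and 5 were past 1.5-fold lower and 0 past 1.5-fold higher in the mutant library, against 4.03% lower and 3.4% higher over all 5060 measured genes. The summed level was lower (log2 −0.51, −0.58 to −0.44), with a median of −0.64 over the 9 genes and −0.05 over all. Fosb was at 105 CPM in mutant and 229.7 CPM in control cells (−1.13, −1.44 to −0.83). Atf3 was at 28.6 CPM in mutant and 59.5 CPM in control cells (−1.06, −1.67 to −0.47) and Egr1 at 129 CPM in mutant and 237 CPM in control cells (−0.88, −1.16 to −0.60). Ier2 was at 56.4 CPM in mutant and 95.1 CPM in control cells (−0.75) and Jun at 500.4 CPM in mutant and 780.4 CPM in control cells (−0.64). Jund, at 474 CPM in mutant and 436 CPM in control cells, did not share this direction (0.12, −0.05 to 0.29). Any of the 10 genes was detected in 89.2% of mutant and 88.5% of control fibroblasts. After thinning the shares were 47.0% in mutant and 49.4% in control (difference −2.4 points, −18.0 to 13.2). For each of the 5 lower genes the interval of the difference in share included 0, before and after thinning. Before it, Jun and Ier2 were found in more mutant than control cells, and Fosb, Atf3 and Egr1 in fewer. The 8 mutant and 7 control cells with most UMIs of the set held at least as many as all others of their library. The summed ratio depended on which cells were counted, being 0.03 with a stricter marker gate and 0.12 without the 20% of cells of highest ribosomal protein share in each library. Cells with more UMIs of border markers, genes of the arachnoid and dural border, than of fibroblast markers held 1899 CPM in 41 mutant and 2911 CPM in 49 control cells. The other fibroblasts held 2269.9 CPM in 42 mutant and 3001 CPM in 38 control cells, so the difference had the same direction in both.

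In choroid plexus epithelium the sum was 1.61-fold that of the control library (log2 0.69, 0.56 to 0.81). Of 2 measured genes, Fos was past 1.5-fold higher and Jund was not, against 4.62% of 4507 measured genes higher and 0.599% lower. Jund, at 239.6 CPM in mutant and 181 CPM in control cells (0.40, 0.27 to 0.54), was spread over the class, with 53 mutant and 68 control cells holding 50% of its UMIs. Fos, at 158 UMIs in mutant and 15 UMIs in control cells (log2 3.69, 2.92 to 4.56), was not: 1 of the 261 mutant cells held 48.1% of its UMIs, and 4.21% of mutant and 4.27% of control cells had a Fos UMI. Without the 2% of cells with most Fos UMIs the Fos ratio was −0.17, against 0.33 for the sum treated likewise. The mutant cell with most UMIs of the set had 52385 UMIs against a class median of 13791, with all 8 choroid plexus markers and 5 of the 8 ependymal markers detected; the control cell with most had 30178 UMIs, all 8 choroid plexus markers and 4 ependymal markers.

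In endothelial cells, 7 of the 10 genes were measured, and 5 were past 1.5-fold lower and 0 past 1.5-fold higher in the mutant library, against 6.02% lower and 2.47% higher over all 6316 measured genes. The summed log2 ratio was −0.97 (−1.12 to −0.83), and the median over the 7 genes was −0.92, against −0.01 over all measured genes. Jun was at 69.5 CPM in mutant and 168 CPM in control cells (−1.28, −1.58 to −0.98) and Jund at 63.0 CPM in mutant and 119.5 CPM in control cells (−0.92, −1.25 to −0.61). Fos was at 7.65 CPM in mutant and 60.5 CPM in control cells (−2.98, −3.92 to −2.17). Junb was at 20.02 CPM in mutant and 43.1 CPM in control cells (−1.11, −1.70 to −0.55), and Egr1 at 17.1 CPM in mutant and 26.4 CPM in control cells (−0.63), with an interval that reached 0.01. Ier2 (−0.51) and Btg2 (−0.56) were lower by less than 1.5-fold. Fosb (−0.01, −0.91 to 0.86) and Nr4a1 (0.13, −0.57 to 0.82), below the limits for measured genes, had intervals on both sides of 0.

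Part of the endothelial difference rested on few cells. In the control library 1 cell of 20015 UMIs held 340 of the 1566 UMIs of the set (21.7%), and another of 11763 UMIs held 227 (14.5%). Both expressed 9 of the 10 genes, and their ribosomal protein shares were 9.36% and 12.7%, against a class median of 0.641%. The first had 5 of 8 endothelial and 3 fibroblast markers detected, the second all 8 endothelial markers. The first held 60.5% of the class's Fos UMIs, 50.7% of Egr1 and 20.9% of Jun, and the second 37.8% of Junb. In the mutant library 1 cell held 11.8% of the set's UMIs and 78.9% of those of Fosb. Without the 1 cell with most UMIs of the set in each library the sums were 256 CPM in mutant and 447 CPM in control (log2 −0.80). Without the 2% with most UMIs of the set they were 208 CPM in mutant and 309 CPM in control (−0.57). Shares of cells, which a single cell cannot move far, differed less: any of the 10 genes was detected in 53.9% of mutant and 63.1% of control cells (difference −9.2 points, −16.3 to −2.0) and, after thinning to 1000 UMIs, in 21.1% of mutant and 28.9% of control cells (−7.8, −13.9 to −1.5). Before thinning a Fos UMI was found in 2.96% of mutant and 4.21% of control cells, and a Jun UMI in 21.1% of mutant and 29.1% of control cells. Astrocytes, the class of lowest level, had a Fos UMI in 2.61% of mutant and 3.20% of control cells. Their median depth was 8798 UMIs in mutant and 8528.5 in control, against 4844.5 in mutant and 4366 in control endothelial cells. The Fos shares of the 2 classes were thus not at like depth. After thinning, a Fos UMI was found in 2 of 304 mutant and 8 of 523 control endothelial cells. It was found in 0 of 115 mutant and 0 of 250 control astrocytes.

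**Figure D3:**
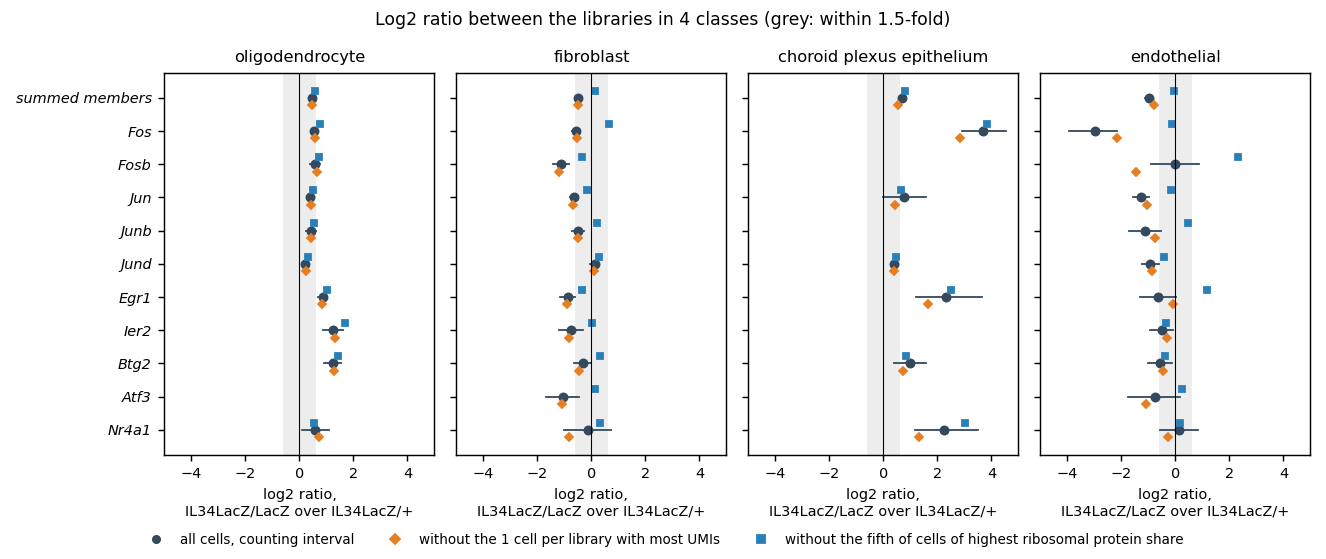
Log2 ratio of mutant (IL34LacZ/LacZ) over control (IL34LacZ/+) for the sum and each gene with at least 30 UMIs in 4 classes. Circles with lines are all cells with the 95% counting interval, and grey marks less than 1.5-fold. Diamonds leave out the 1 cell per library with most UMIs of the gene or sum shown. Squares leave out the 20% of cells of highest ribosomal protein share. With the latter omission the endothelial sum moves to −0.07, while the oligodendrocyte sum moves up to 0.59.

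The ribosomal protein share of the cell moved with the endothelial and fibroblast differences. The 20% of endothelial cells with the highest share were 61 mutant and 105 control cells. They were taken in each library on its own, so their lowest share was 1.04% in mutant and 1.36% in control. Their sums were 435 CPM (368 to 512) in mutant and 1621 CPM (1522 to 1724) in control. In the other 243 mutant and 418 control cells they were 253 CPM (227 to 281) in mutant and 265 CPM (243 to 287) in control, a log2 ratio of −0.07. The higher level was not only that of the 2 cells named above. Without the 2 cells with most UMIs of the set in each library, 59 mutant high-share cells held 362 CPM and 103 control ones 738 CPM. With 2 cells left out likewise among the cells of lower share, 241 mutant cells held 196 CPM and 416 control cells 254 CPM. The near-equal levels of the lower-share cells thus depended in part on 2 mutant cells. Outside the high-share cells the log2 ratio was −0.11 for Fos, −0.16 for Jun, −0.44 for Jund, 0.47 for Junb, 1.15 for Egr1 and 2.32 for Fosb, and the 1 mutant cell that held most Fosb UMIs was among these cells. Plvap, a gene of fenestrated endothelium, was at 53.3 CPM in mutant and 100.7 CPM in control high-share cells, and at 21.3 CPM in mutant and 14.5 CPM in control cells of lower share. Igfbp5 was at 204 CPM in mutant and 214 CPM in control high-share cells, and at 4.41 CPM in mutant and 3.26 CPM in control cells of lower share. In these data Igfbp5 was also among the genes that most set the fibroblast class apart from the other cells. Both Plvap and Igfbp5 were chosen after their values were seen. Genes of barrier endothelium were present in the same cells. Slco1a4, a transporter, was at 4368 CPM in mutant and 5343 CPM in control high-share cells and at 5418 CPM in mutant and 6033 CPM in control cells of lower share. Mfsd2a, a lipid transporter, was at 222 CPM in both libraries in high-share cells and at 163 CPM in mutant and 234 CPM in control cells of lower share. The 8 fibroblast markers summed to 53.3 CPM in mutant and 86.1 CPM in control high-share endothelial cells, with 4 of them at 0 in mutant and 1 in control, and to 5.88 CPM in mutant and 22.8 CPM in control cells of lower share. In fibroblasts of high share they summed to 5108 CPM in mutant and 3252 CPM in control. The part of any of these in the difference was not tested.

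**Figure D4:**
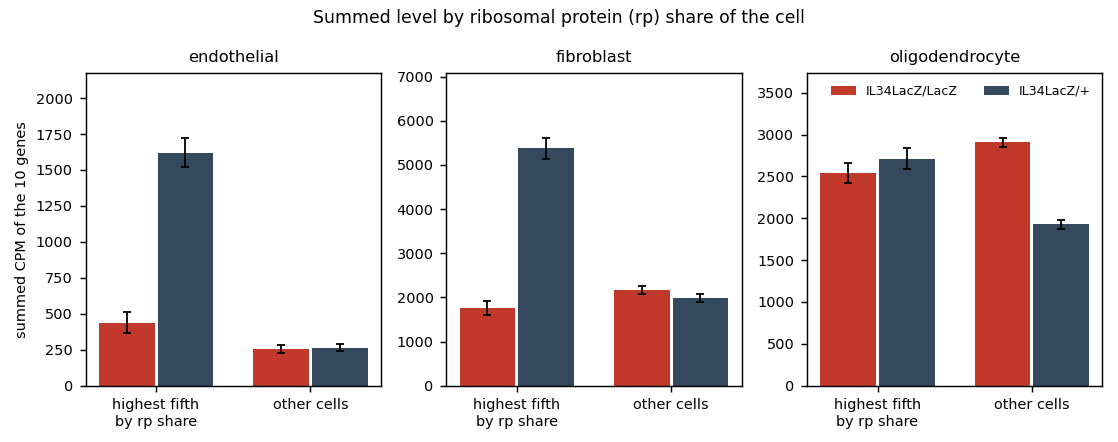
Summed CPM of the 10 genes (vertical axis, from 0) in the 20% of cells with the highest ribosomal protein (rp) share and in the other cells of 3 classes, mutant (IL34LacZ/LacZ) in red on the left and control (IL34LacZ/+) in dark blue on the right, with exact Poisson 95% intervals. The 20% was taken in each library on its own. High-share endothelial cells stand at 435 CPM in mutant and 1621 CPM in control and the others at 253 CPM in mutant and 265 CPM in control. In oligodendrocytes the libraries differ more outside the high-share cells.

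In fibroblasts the high-share cells were 17 in mutant, from a share of 9.34%, and 18 in control, from a share of 10.3%. They held 1758 CPM in mutant and 5375 CPM in control, and the others 2166 CPM in mutant and 1987 CPM in control. High-share oligodendrocytes held 2541 CPM in mutant and 2713 CPM in control, and the others 2907 CPM in mutant and 1926 CPM in control, so the difference between the libraries lay in the cells outside the high-share 20%. Over cells, the summed level correlated with the ribosomal protein share in every one of the 6 classes, from 0.15 in choroid plexus epithelium to 0.54 in pericytes, as a description in which both measures share the cell's depth.

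Astrocytes and pericytes gave little to compare. In astrocytes only Jund was measured, and it lay within 1.5-fold (0.00, −0.60 to 0.59), with 1.4% of 5562 measured genes higher and 3.76% lower. The astrocyte sum had a log2 ratio of 0.05 (−0.30 to 0.39), so a difference of 1.5-fold in either direction lay outside the interval. In pericytes 0 of the 10 genes were measured, against 6.67% of 705 measured genes higher and 3.97% lower. The pericyte sum had a log2 ratio of −0.25 (−0.74 to 0.24). A level 1.5-fold lower in mutant lay inside this interval, and a level 1.5-fold higher lay outside it.

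Other early response genes followed the 10 in part. Of 98 further names in 8 lists, among them AP-1 partners, other EGR and NR4A genes, KLF factors, feedback regulators, upstream kinases and factors, and heat shock genes, 94 were listed in the count tables. In endothelial cells 49 of these were measured, 1 past 1.5-fold higher and 4 lower, with a median log2 ratio of −0.02, near the background given above. Klf2, a flow-responsive factor of endothelium, was lower at 229.6 CPM in mutant and 384 CPM in control cells (−0.74, −0.91 to −0.57). The other 3 were Ier5 at 41.8 CPM in mutant and 64.5 CPM in control cells (−0.63), Btg1 at 34.1 CPM in mutant and 52.5 CPM in control cells (−0.62), and Hspb1, a small heat shock protein, at 113 CPM in mutant and 172 CPM in control cells (−0.61). Klf4 was at 206 CPM in mutant and 307 CPM in control cells (−0.58), just inside the threshold. Ptgs2, the inducible cyclooxygenase, was the 1 higher gene, at 48.3 CPM in mutant and 17.4 CPM in control cells (1.47, 0.94 to 2.02). None of the 11 upstream kinases and factors measured was past 1.5-fold, the range being −0.20 for Mapk9 to 0.25 for Mapkapk2, and the same held for the 5 AP-1 partners, from Atf2 (−0.28) to Fosl2 (0.41). The 8 feedback genes measured ran from Dusp1 (−0.24) to Nfkbiz (0.52).

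In oligodendrocytes 42 of the listed genes were measured, 3 past 1.5-fold higher and 2 lower, against 1.3% of all measured genes higher and 1.22% lower, with a median log2 ratio of 0.07. Dusp1, a phosphatase of MAP kinases, was at 53.1 CPM in mutant and 26.7 CPM in control cells (0.99, 0.64 to 1.35). Zfp36, which promotes decay of unstable mRNA, was at 53.6 CPM in mutant and 26.1 CPM in control cells (1.04, 0.68 to 1.40), and Klf4 at 30.04 CPM in mutant and 14.9 CPM in control cells (1.01, 0.53 to 1.5). The 2 lower genes were heat shock genes. Hspa1a was at 81.0 CPM in mutant and 137 CPM in control cells (−0.76, −0.96 to −0.56). Hspa1b, its near-identical copy whose reads the counting may have split, was at 64.5 CPM in mutant and 123 CPM in control cells (−0.93, −1.16 to −0.71). The other 5 heat shock genes measured were within 1.5-fold, from −0.12 for Dnaja1 to 0.42 for Dnajb1 (0.23 to 0.62). In fibroblasts 52 listed genes were measured, 2 past 1.5-fold higher and 10 lower, against 3.4% of all measured genes higher and 4.03% lower, with a median of −0.20. Hspa1b, at 11.1 CPM in mutant and 81.2 CPM in control cells (−2.87, −3.79 to −2.06), Zfp36, at 44.5 CPM in mutant and 100.5 CPM in control cells (−1.18, −1.66 to −0.71), and Hspa1a, at 39.7 CPM in mutant and 86.6 CPM in control cells (−1.13), were the lowest of these. Errfi1, a feedback inhibitor of EGF receptors, was higher at 86.6 CPM in mutant and 27.8 CPM in control cells (1.64, 1.08 to 2.22). The choroid plexus had 25 measured and 0 past the threshold in either direction, astrocytes 27 with 1 higher and 1 lower, and pericytes 1 with 0.

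Over the 12 sums of class and library, the genes whose log2(CPM + 1) ran most like the mean of the set were Ybx3 (r = 0.95), Rhoa, Apod, Mapk3, Rgmb, Rasgef1b, Adamtsl1, Snx6, Map1b and Tmem159 (0.92), each higher in oligodendrocytes and fibroblasts than in astrocytes. Apod, for example, was at 3039 CPM in mutant and 3379.5 CPM in control oligodendrocytes, 2041 CPM in mutant and 2077 CPM in control fibroblasts and 8.78 CPM in mutant and 13.9 CPM in control astrocytes. Over single endothelial cells the closest genes included Ptma, Tmsb4x, Ly6a, Actb, H3f3b, Gpx1, Sub1, Ly6c1 and Chchd2, with r of 0.24 to 0.31 in either library. In astrocytes they included Rpl18, Rpl28, Mt1, Ubb, Ckb, Serf2, Cox6b1, Atp5pb and H3f3a, with r of 0.31 to 0.39. Correlations of this size in sparse counts are reported as a ranking only. In oligodendrocytes, added after the data were seen, the highest ranks included Ubb (r = 0.62 in mutant and 0.59 in control cells), Dnajb1 (0.63 in mutant and 0.56 in control) and Hsp90aa1 (0.45 in mutant and 0.53 in control), with Tnfaip6, Hsph1, Dusp1, Cryab, H3f3b and Hspa8. In fibroblasts, also added, it was led by other early response genes, Klf2 (0.65 in mutant and 0.62 in control), Dusp1 (0.66 in mutant and 0.61 in control), Zfp36 (0.60 in mutant and 0.69 in control) and Socs3 (0.60 in mutant and 0.64 in control), with Ppp1r15a, Bhlhe40, Klf4, Ubb, Eif1 and Gadd45g.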

How the data were processed

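The submitters' processing notes name Cell Ranger and the builds GRCm38.p6 and mm10, and version 7.1.0 is given per the file headers. The deposited values are UMI counts per gene and barcode, not normalised. Each barcode listed held at least 500 UMIs, with 5400 barcodes and 36696941 UMIs in the mutant library (IL34LacZ/LacZ) and 3901 barcodes and 26679053 UMIs in the control library (IL34LacZ/+). Barcodes with at least 1000 UMIs, 500 genes and at most 15% mitochondrial UMIs were kept, 1175 in mutant and 1668 in control. Scrublet in scanpy 1.11.5 marked 8 mutant (0.681%) and 9 control (0.540%) cells as doublets, which were removed, against 4.32% in mutant and 3.12% in control expected from the barcode numbers.

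A cell joined the class with most detected markers, at least 3 and at least 2 more than any other class; erythrocytes were cells over 50% haemoglobin UMIs, and border markers only split fibroblasts. This scoring was set after the data were seen, and the members and all lists were chosen with earlier results of these data known. UMIs were summed per class and library and scaled to CPM (UMIs per 1000000 UMIs of the class), with exact Poisson intervals; shares have Clopper-Pearson intervals, their differences Newcombe intervals, and ratios exact conditional binomial intervals. UMIs of 3′ tags were not scaled by length, so levels are compared between classes and not between genes. The 6 classes with at least 30 cells in each library were compared. Named were the 10 genes, listed genes by their 3 highest and 3 lowest endothelial ratios or past 1.5-fold, and the 10 genes most like the set; some of these are not reported here. Thinning drew 1000 UMIs per cell without replacement once, with no cell left out by it. Cells are not replicates, and no test was run. The ratio and thinning steps were checked on simulated data. There were 11 alternatives planned and 2 added. Cells left out for holding most UMIs were ranked by UMIs of the gene or sum compared, not by all their UMIs. In bulk sums of a class, fewer expressing cells and less RNA per cell are told apart only by the shares of cells given. Gene positions are from GENCODE vM21. The promoters of Ier2 and Egr1 had no entry.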

Additional observations from a re-analysis of the deposited data

Results flagged for a closer look

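The log2 ratio of mutant (IL34LacZ/LacZ) over control (IL34LacZ/+) ran in opposite directions in different classes, with counting intervals on opposite sides of 0; with 1 library per genotype the difference between classes was not tested. The summed log2 ratio was −0.97 in endothelial cells and 0.69 in choroid plexus epithelium. Jund gave −0.92 and 0.40 in the same pair of classes. Fos gave −2.98 and 3.69 there, but 1 mutant cell held 48.1% of its choroid plexus UMIs in that library and 1 control cell 60.5% of its endothelial UMIs in that library. Fos was at −0.11 in endothelial cells without the 20% of highest ribosomal protein share. It was at −0.17 in choroid plexus epithelium without the 2% of cells with most Fos UMIs. Between endothelial cells and oligodendrocytes, Jun gave −1.28 and 0.38, Junb −1.11 and 0.43, and Btg2 −0.56 and 1.23. Between fibroblasts and oligodendrocytes, Fosb gave −1.13 and 0.58, and Ier2 −0.75 and 1.24. Egr1 gave −0.88 in fibroblasts and 2.33 in choroid plexus epithelium, where it had 33 UMIs in mutant and 8 UMIs in control cells and 1 mutant cell held 45.5% of the 33.

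Barcodes outside the classes also carried these genes. Cells that matched no class held 3039 CPM of the set in mutant and 4084 CPM in control. In mutant 1 of these 52 cells held 28.9% of the UMIs of the set, and in control 1 of 74 held 14.7%. Barcodes over the mitochondrial limit held 307 CPM in mutant and 467 CPM in control. Those under the UMI or gene minimum held 80.3 CPM in mutant and 95.4 CPM in control. Of the latter, barcodes matching no class held 264 CPM in mutant and 393 CPM in control. Those passing the astrocyte gate held 239 CPM in mutant and 260 CPM in control. The oligodendrocyte gate gave 540 CPM from 11 UMIs in mutant and 396 CPM from 7 UMIs in control. The low pooled level thus came from other barcodes. Among those over the mitochondrial limit, 35 mutant barcodes passing the oligodendrocyte gate held 1004 CPM and 54 control barcodes 1585 CPM, so mutant was lower there and higher among the oligodendrocytes kept.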

How the results depend on the processing

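No paired analysis was possible because each genotype has 1 library. Of 13 alternatives, the summed log2 ratio of mutant over control stayed positive in oligodendrocytes and choroid plexus epithelium and negative in endothelial cells and pericytes under all 13. It changed sign in fibroblasts under 2 and in astrocytes under 2. In endothelial cells it was −1.31 with a mitochondrial limit of 5%, −0.60 after thinning to 1000 UMIs, −0.57 without the 2% of cells with most UMIs, −0.62 with a stricter gate, −0.70 in Leiden clusters, −0.62 as a mean over cells, −0.80 without the 1 cell with most UMIs, and −0.067 without the 20% of highest ribosomal protein share. In choroid plexus epithelium it was 0.41 with no filter on cells, 1.73 with the 5% limit, 0.51 after thinning, 0.33 without 2% of cells, 0.48 as a mean over cells, and 0.54 without 1 cell. In fibroblasts it was −0.41 with no filter, −0.59 with the 5% limit, 0.033 with the stricter gate, 0.12 without the 20%, and −0.41 with a gate margin of 1. In oligodendrocytes it was 0.69 with the 5% limit, 0.57 thinned, 0.59 without 2%, 0.59 without the 20%, and 0.38 with the margin of 1. Thinned, astrocytes were at −0.31 and pericytes at −1.17, both from few UMIs. In the draw used for shares of cells, 9 of 47 mutant and 8 of 34 control pericytes kept any UMI of the set. Among astrocytes 10 of 115 mutant and 24 of 250 control cells did. The cause of these shifts was not tested.

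Ratios of single genes kept their value within the counting interval in 401 of 498 cases, moved in 82, and changed sign from past 1.5-fold in 15. Some of the 15 rested on few UMIs. These were, in choroid plexus epithelium, Fos without 2% of cells (−0.17) and Jun thinned (−0.57), without 2% (−0.23) and as a mean over cells (−0.23). Fos had only 15 control UMIs there before cells were left out, at most 1 per cell. In the draw used for shares of cells, a thinned Jun UMI was found in 1 mutant and 2 control choroid plexus cells. A thinned Junb UMI was found in 5 mutant and 7 control endothelial cells. In endothelial cells the sign changes were Junb thinned (0.27) and without the 20% (0.47), Egr1 with the stricter gate (0.46), in clusters (0.18), as a mean (0.14) and without the 20% (1.15), and Atf3 without the 20% (0.24). In fibroblasts they were Egr1 thinned (0.45), Ier2 with the stricter gate (0.024) and without the 20% (0.0073), and Atf3 without the 20% (0.13).

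With mitochondrial, haemoglobin and ribosomal protein UMIs left out of the denominator, the sums were 3175 CPM in mutant and 2317 CPM in control oligodendrocytes, 2462 CPM in mutant and 3443 CPM in control fibroblasts, and 410.3 CPM in mutant and 249.4 CPM in control choroid plexus epithelium. Thinned to 2000 UMIs, the shares of cells with any of the 10 genes were 81.5% in mutant and 72.0% in control oligodendrocytes, 65.1% in mutant and 65.5% in control fibroblasts, 37.9% in mutant and 31.4% in control choroid plexus epithelium, 31.7% in mutant and 39.2% in control endothelial cells, and 16.5% in mutant and 17.4% in control astrocytes. The percentage of genes past 1.5-fold was 8.49 in endothelial cells, 7.43 in fibroblasts, 2.52 in oligodendrocytes, 5.21 in choroid plexus epithelium, 5.16 in astrocytes and 10.6 in pericytes. In the same order it became 16.3, 15.1, 8.21, 13.1, 12.8 and 28.3 with at least 30 UMIs as the only minimum, and 1.41, 1.25, 0.423, 1.18, 0.503 and 2.27 at 2-fold.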
